A study of Mus musculus with 8 samples.

Results

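The aryl hydrocarbon receptor (AHR) pathway was followed through 5 genes: Ahr, the receptor itself; Arnt, its dimer partner; Ahrr, its repressor; Tiparp, an ADP-ribosyltransferase that curbs the receptor; and Cyp1b1, a cytochrome P450 enzyme. They were taken by gene symbol from the deposited counts of 23420 entries, and all 5 were found. They were selected on the knockdown values of these libraries, in which Cyp1b1 had one of the larger falls, together with other genes of its pathway. Differences between knockdown and scrambled cells are therefore given for the 5 genes as values without p-values.

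The cells were NIH3T3, a line of mouse embryonic fibroblasts, which carried either shRNA against RPRD1B, a regulator that associates with the tail of RNA polymerase II, or a scrambled shRNA. Both groups were kept under puromycin for at least a week, and 4 libraries of each were sequenced. The libraries came as 2 sets, with RPRD1B replicates 1 and 2 and scrambled replicates 1 and 2 in set 1, and replicates 3 and 4 of each group in set 2. What sets the 2 apart, whether replicates were separate cultures and which hairpins were used is left unsaid in the labels, so p-values measure the spread between libraries, which may be technical. No ligand of the receptor is named in the labels.

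AHR sits in the cytosol with HSP90 and other chaperones until a ligand, such as a dioxin, a polycyclic aromatic hydrocarbon or a tryptophan derivative, binds it. It then enters the nucleus, pairs with ARNT and binds the xenobiotic response element, whose core is GCGTG, near its target genes. Cyp1a1, Cyp1b1, Ahrr and Tiparp are classical targets, and the proteins of the last 2 genes in turn dampen the receptor. In fibroblasts and other cells of mesodermal origin CYP1B1 is a main P450 of this response, and it oxidises oestradiol, retinoids and polycyclic hydrocarbons.

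The promoters of the 3 target genes among the 5 are shown because AHR and ARNT are known to act on these genes. The sequences are from RefSeq for GRCm38.p6 (mm10) and run from 250 bases before to 50 bases after the annotated start, with GCGTG, or CACGC where it reads on the other strand, in capitals. The table gave a promoter for Arnt, Ahrr, Tiparp and Cyp1b1, 4 of the 5 genes, and not for Ahr.
Cyp1b1 (chr17:79715012-79715311, minus strand): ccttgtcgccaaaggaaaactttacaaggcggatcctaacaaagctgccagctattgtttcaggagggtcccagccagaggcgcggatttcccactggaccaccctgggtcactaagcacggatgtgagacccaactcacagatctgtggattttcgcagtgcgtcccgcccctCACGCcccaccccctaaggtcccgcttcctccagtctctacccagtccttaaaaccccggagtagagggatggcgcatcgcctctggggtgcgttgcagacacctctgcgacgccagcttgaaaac
Tiparp (chr3:65528197-65528496, plus strand): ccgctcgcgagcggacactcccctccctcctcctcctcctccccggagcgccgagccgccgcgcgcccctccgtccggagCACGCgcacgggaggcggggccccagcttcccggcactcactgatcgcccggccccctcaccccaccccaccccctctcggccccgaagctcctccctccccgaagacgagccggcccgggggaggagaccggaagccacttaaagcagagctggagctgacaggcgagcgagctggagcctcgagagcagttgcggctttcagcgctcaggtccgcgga
Ahrr (chr13:74292282-74292581, minus strand): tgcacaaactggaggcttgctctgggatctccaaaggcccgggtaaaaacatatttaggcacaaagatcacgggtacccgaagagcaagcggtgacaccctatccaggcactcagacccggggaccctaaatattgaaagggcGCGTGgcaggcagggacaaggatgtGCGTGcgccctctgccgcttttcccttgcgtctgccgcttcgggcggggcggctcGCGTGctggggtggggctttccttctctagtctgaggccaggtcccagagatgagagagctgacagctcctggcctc
Cyp1b1 held 1 match, on the opposite strand at bases -76 to -72 from its start, and Tiparp held 1, also on the opposite strand, at -170 to -166. Ahrr held 3, all on the gene's own strand, at -107 to -103, -82 to -78 and -27 to -23. The promoter of Arnt, which is not a known target, also held 1, on its own strand at -29 to -25, so each of the 4 promoters had the core. It was present on either strand in 32.4% of 32851 mouse promoters of the same length, so a single match is a common feature. The longer form TNGCGTG, which contains the core, was present in 5.07% of them and, of the 4 promoters, in that of Ahrr. A match describes the letters in this window and is not a measured binding site.

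Library depth was 12311442 to 23223139 counts, at which 3 counts equal 0.129 to 0.244 CPM (counts scaled to the library total; levels below are also TMM-scaled). Rprd1b stood at 26.4, 28.0, 22.5 and 22.7 CPM in RPRD1B replicates 1 to 4, and at 42.3, 44.4, 39.5 and 40.8 CPM in scrambled replicates 1 to 4. The targeted gene was thus lower in every knockdown library. Of 10 fibroblast markers 9 passed a mean count of 10, with summed levels of 16240 to 16610 CPM in RPRD1B libraries and 16260 to 16790 CPM in scrambled libraries. Of the 9, Col3a1, Pdgfra and Vim rose and Pdgfrb fell (adjusted p of 1.97e-14 to 0.00920 in edgeR), and their part in the results below was not tested. The 8 epithelial markers summed to at most 0.526 CPM in RPRD1B and 0.585 CPM in scrambled libraries, and the 7 endothelial markers to at most 0.658 and 0.538 CPM, so both were at or near 0. Macrophage markers summed to 5.86 to 7.65 CPM in RPRD1B and 5.41 to 10.8 CPM in scrambled libraries, and adipocyte markers to 14.8 to 19.8 and 13.2 to 19.8 CPM.

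Per kilobase of exon the 5 genes spanned a wide range of levels. Tiparp averaged 62.6 CPM per kilobase over the 8 libraries, above 94.8% of tested genes, and Arnt averaged 16.1, above 76.1% of them. Ahr averaged 11.4 CPM per kilobase, above 67.1% of tested genes. Cyp1b1 averaged 0.623, above 9.30% of them, and Ahrr averaged 0.00610, below every tested gene. The order Tiparp, Arnt, Ahr, Cyp1b1, Ahrr held in each of the 8 libraries. Over all libraries the ranges of Arnt, 12.2 to 19.7, and Ahr, 5.40 to 16.7 CPM per kilobase, overlapped, while those of the other neighbours in this order did not.

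**Figure D1:**
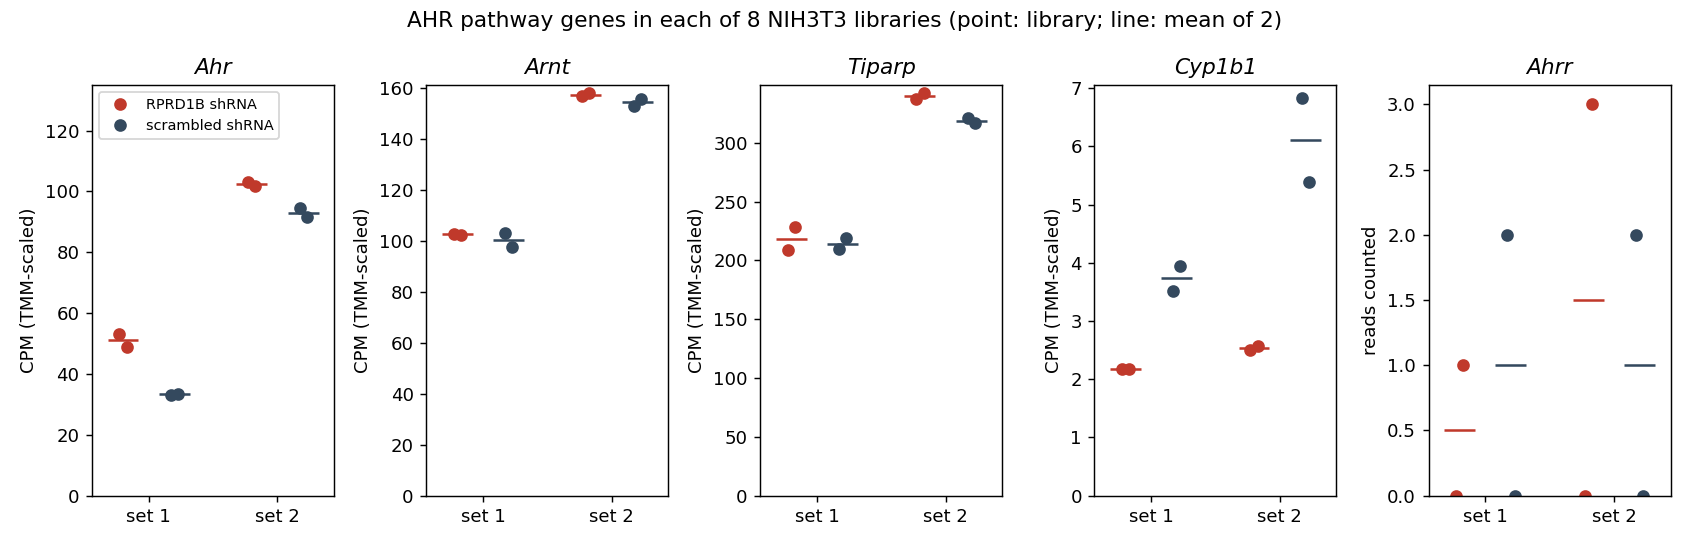
Level of each gene in every library, with set 1 on the left and set 2 on the right of each panel, RPRD1B shRNA libraries before scrambled ones. Points are libraries, lines are means of 2, the axis is TMM-scaled CPM on a linear scale (reads counted for Ahrr), and Cyp1b1 is the gene whose 4 RPRD1B libraries all lie below its 4 scrambled libraries.

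Cyp1b1 was lower in every RPRD1B library than in any scrambled library. It stood at 2.18 and 2.17 CPM in RPRD1B replicates 1 and 2, against 3.52 and 3.95 CPM in scrambled replicates 1 and 2. In set 2 it stood at 2.50 and 2.57 CPM in RPRD1B replicates 3 and 4, against 6.82 and 5.38 CPM in scrambled replicates 3 and 4. The RPRD1B libraries were close together across the sets, at 2.35 ± 0.210 CPM (SD, n = 4), while the scrambled libraries were spread, at 4.92 ± 1.50 CPM (SD, n = 4). The fitted log2 fold change over both sets was -1.06 ± 0.19 (SE), a level 0.480 times that of scrambled cells. In bulk RNA, fewer cells that express the gene and less RNA per cell cannot be told apart.

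The Cyp1b1 values rest on few reads. Counts were 31, 33, 31 and 59 in RPRD1B replicates 1 to 4, and 48, 54, 116 and 70 in scrambled replicates 1 to 4. The exact Poisson 95% interval ran from 1.48 to 3.09 CPM in RPRD1B replicate 1 and from 2.59 to 4.66 CPM in scrambled replicate 1, so single libraries of set 1 overlap within counting error. In set 2 the interval was 1.96 to 3.32 CPM in RPRD1B replicate 4 and 5.64 to 8.18 CPM in scrambled replicate 3. These intervals cover counting error only. Without scrambled replicate 3, the highest library, the log2 fold change was -0.92 ± 0.22 (SE).

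Cyp1b1 lies on chromosome 17 at 79701537 to 79715061, on the minus strand (mm10). GENCODE M21 places no other gene over it. The 77 other tested genes within 10 Mb had a median log2 fold change of -0.03, and the 553 others on the chromosome a median of -0.01.

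Ahr was higher in the RPRD1B libraries of each set, by less in set 2 than in set 1. It stood at 53.2 and 48.9 CPM in RPRD1B replicates 1 and 2, against 33.2 and 33.3 CPM in scrambled replicates 1 and 2. In set 2 it stood at 103 and 102 CPM in RPRD1B replicates 3 and 4, against 94.4 and 91.6 CPM in scrambled replicates 3 and 4. The groups did not overlap within either set, although every library of set 2 lay above every library of set 1. The log2 fold change over both sets was 0.33 ± 0.07 (SE), or 1.26-fold. Fitted within the sets it was 0.13 ± 0.06 in set 2 and 0.62 ± 0.09 in set 1.

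The knockdown fold of Ahr was smaller in set 2 than in set 1, with a log2 difference of -0.48 ± 0.10 (SE), and the difference lay between -0.54 and -0.42 when single libraries were left out. The folds of both sets were known when the genes were chosen and the difference is made from them, so it is a description and is given without a p-value. Over all 11723 tested genes, 0.247% had a difference between the sets past an adjusted p of 0.05 in edgeR. In simulated counts that fit recovered 38% of log2 differences of 0.5, so many differences of this size would be missed.

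Ahr lies on chromosome 12 at 35497974 to 35535038, on the minus strand. The other 387 tested genes of chromosome 12 had a median log2 fold change of -0.06, and the 40 within 10 Mb a median of -0.05, on the other side of 0 from Ahr. A long non-coding RNA gene on the opposite strand, Gm48236, shares 127 exon bases with Ahr. The library kit is not described as stranded, so reads from those bases cannot be told apart.

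**Figure D2:**
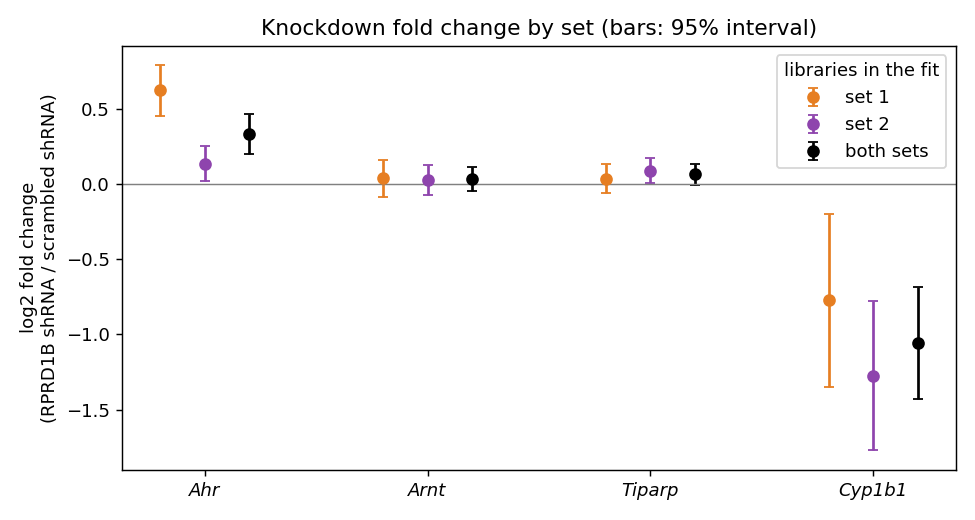
Log2 fold change of RPRD1B shRNA over scrambled shRNA for the 4 genes with enough reads, fitted in set 1, in set 2 and over both sets; points are estimates and bars are 95% intervals. Ahr lies above 0 with a smaller value in set 2 (0.13) than in set 1 (0.62), Arnt and Tiparp lie near 0, and Cyp1b1 lies below 0 in both sets (-0.77 and -1.27).

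Arnt, the partner that AHR shares with the hypoxia factors, was nearly level between the groups. It stood at 103 and 102 CPM in RPRD1B replicates 1 and 2, against 103 and 97.4 CPM in scrambled replicates 1 and 2. In set 2 it stood at 157 and 158 CPM in RPRD1B replicates 3 and 4, against 153 and 156 CPM in scrambled replicates 3 and 4. The groups overlapped in set 1 and lay within a few CPM of each other in set 2, with the RPRD1B libraries above. The log2 fold change over both sets was 0.03 ± 0.04 (SE), with a 95% interval of -0.05 to 0.11. Arnt lies on chromosome 3 at 95434388 to 95497240, on the plus strand.

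Tiparp, also called PARP7, was the most abundant of the 5 genes and lay slightly higher in the RPRD1B libraries of set 2. It stood at 209 and 228 CPM in RPRD1B replicates 1 and 2, against 210 and 219 CPM in scrambled replicates 1 and 2. In set 2 it stood at 337 and 342 CPM in RPRD1B replicates 3 and 4, against 321 and 317 CPM in scrambled replicates 3 and 4. The groups overlapped in set 1, while in set 2 the RPRD1B libraries lay above the scrambled ones, as they did for Arnt. How many tested genes were apart in a single set of 2 libraries per group was not counted, so nothing is read from this. The log2 fold change over both sets was 0.06 ± 0.03 (SE), with a 95% interval of -0.00 to 0.13. In these libraries Tiparp did not share the lower level of Cyp1b1, a fall that was in view when the genes were chosen. Why the 2 genes differ was not tested.

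Tiparp lies on chromosome 3 at 65528410 to 65555518, on the plus strand, and shares 223 exon bases with the pseudogene 4931440P22Rik on the opposite strand. The counts of 4931440P22Rik were 27, 36, 42 and 80 in RPRD1B replicates 1 to 4 and 19, 28, 49 and 35 in scrambled replicates 1 to 4, against 2862 to 7857 for Tiparp. The counts of the pseudogene were thus small beside those of Tiparp.

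Ahrr was at the limit of detection. It had 0, 1, 0 and 3 counts in RPRD1B replicates 1 to 4, and 2, 0, 2 and 0 counts in scrambled replicates 1 to 4, a sum of 4 in each group. All 8 libraries were at or under 3 counts, which correspond to 0.131 to 0.242 TMM-scaled CPM here, so no fold change is given and a difference was not detectable at this depth. Ahrr lies on chromosome 13 at 74211118 to 74292331, on the minus strand, and did not reach the mean count of 10 needed for the tests.

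Ahr and Cyp1b1 had RPRD1B and scrambled libraries apart in both sets with the same direction, 2 of the 4 genes with enough reads, as had 16.4% of all tested genes. Cyp1b1 alone was apart over all 8 libraries, as were 3.75% of them. Since these values chose the genes, nothing is read from the counts. For Cyp1b1 the difference between the folds of the sets was -0.49 ± 0.38 (SE), for Arnt -0.00 ± 0.08 and for Tiparp 0.06 ± 0.06, given as values for the same reason. Over all tested genes edgeR called 7.57% between RPRD1B and scrambled cells at an adjusted p under 0.05 (3.97% higher, 3.61% lower), and the gene lists described further on are set beside those shares.

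In the authors' deposited table of set 1, Ahr has a log2 fold change of 0.60 (SE 0.09) and Cyp1b1 one of -0.55 (SE 0.24). The values in the authors' deposited table of set 2 are 0.13 (SE 0.07) for Ahr and -0.94 (SE 0.23) for Cyp1b1. For Cyp1b1 these are nearer 0 than the values fitted here in the same sets, -0.77 ± 0.29 in set 1 and -1.27 ± 0.25 in set 2.

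The sets differed from each other more than the groups did, and this contrast was not used to choose the genes. All 4 tested genes were higher in set 2 than in set 1, where 65.9% of all tested genes passed the threshold, 33.0% higher and 32.9% lower. Ahr rose most, by 1.22 ± 0.07 (SE) on the log2 scale or 2.34-fold, with an adjusted p of 1.47e-13 in edgeR. Its log2 difference exceeded that of 93.0% of tested genes in size. Arnt rose by 0.62 ± 0.04 (adjusted p = 1.61e-22) and Tiparp by 0.61 ± 0.03 (adjusted p = 2.43e-25), each about 1.5-fold. Every library of set 2 lay above every library of set 1 for these 3 genes, a pattern that 28.1% of tested genes showed, while the sets were apart in either direction for 56.0%.

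Cyp1b1 differed between the sets by 0.52 ± 0.19 (SE) on the log2 scale (adjusted p = 0.0146 in edgeR), with overlapping libraries. That call was lost without scrambled replicate 1 (adjusted p = 0.0803) or scrambled replicate 3 (0.132), each left out alone, and without the group term (0.219). Among RPRD1B libraries alone the log2 difference between sets was 0.22 ± 0.32 (adjusted p = 0.574), and among scrambled libraries alone it was 0.72 ± 0.23 (adjusted p = 0.00573). The difference between these 2 values is that between the knockdown folds of the sets, -0.49 ± 0.38 (SE), given above without a test. A call among scrambled libraries and none among RPRD1B libraries does not show that the groups differ. For Ahr the matching values were 1.00 ± 0.06 among RPRD1B libraries (adjusted p = 1.15e-17) and 1.49 ± 0.08 among scrambled libraries (adjusted p = 1.86e-21). What the sets stand for was not given, so the set and any condition that differed between them cannot be told apart.

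**Figure D3:**
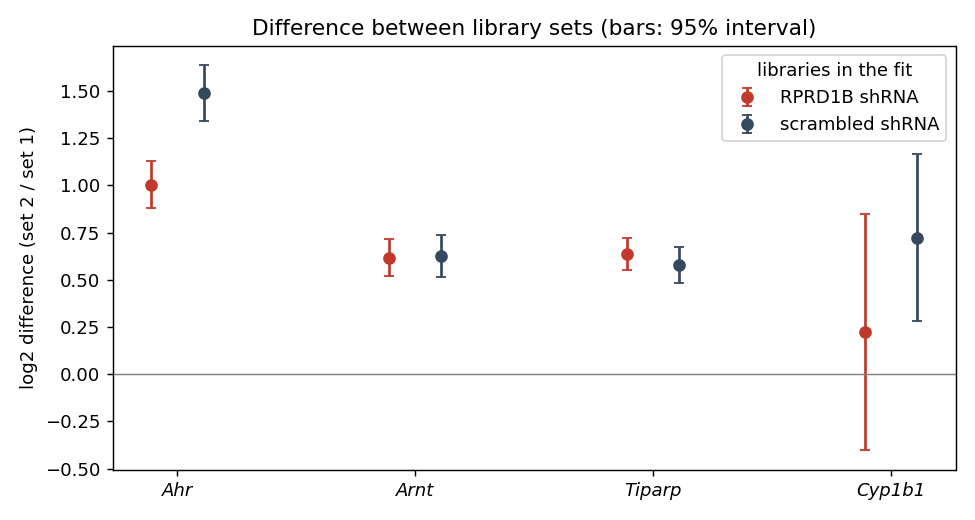
Log2 difference of set 2 over set 1 for 4 genes, fitted in the 4 RPRD1B shRNA libraries alone and in the 4 scrambled shRNA libraries alone; points are estimates and bars are 95% intervals. Ahr has the largest values (1.00 and 1.49), Arnt is at 0.62 in both groups, Tiparp at 0.64 and 0.58, and the bar of Cyp1b1 in RPRD1B libraries crosses 0.

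Other AHR targets were set beside Cyp1b1 from a list of 18 genes, of which 12 had enough reads. Nedd9, an adhesion scaffold protein, fell, with a log2 change of -0.27 ± 0.05 and an adjusted p of 0.000363 in edgeR, and Nfe2l2, the oxidative stress factor NRF2, rose by 0.12 ± 0.03 (adjusted p = 0.0101). So 1 of 12 rose and 1 fell, where 3.97% of tested genes rose and 3.61% fell, and the median of the list was -0.02 against 0.00 over all genes. Nedd9 stood at 49.1 ± 6.70 CPM in RPRD1B and 54.7 ± 2.69 CPM in scrambled libraries of set 1 (SD, n = 2 each). In set 2 Nedd9 stood at 74.6 ± 1.47 CPM in RPRD1B and 95.3 ± 4.59 CPM in scrambled libraries. Its call held when any 1 library was left out (adjusted p up to 0.0129), while set 1 alone gave 0.307, and that of Nfe2l2 was lost without RPRD1B replicate 2 (0.104).

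Of the rest, Xdh, a purine oxidase, stood at 0.10 ± 0.05, the cytokine gene Il6 at -0.52 ± 0.27 and Hes1, a NOTCH target, at -0.26 ± 0.14, and none passed (adjusted p of 0.167 to 0.284 in edgeR).

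Classical members of the AHR gene battery, named after their values were seen, did not pass either. Nqo1, a quinone reductase, had a log2 fold change of -0.04 ± 0.05, Aldh3a1, an aldehyde dehydrogenase, -0.31 ± 0.31, and the glucuronosyltransferase genes Ugt1a6a and Ugt1a6b 0.11 ± 0.10 and 0.25 ± 0.16 (adjusted p of 0.424 to 0.731 in edgeR). Ugt1a6a and Ugt1a6b share exons, so the split of reads between them is uncertain. Cyp1a1 and Cyp1a2, the P450 enzymes most tied to AHR, had 0 counts in all 8 libraries, as had Ido1. The limit set here for a count of 0, which is 3 counts, equals 0.131 to 0.242 CPM in these libraries. Serpinb2, a protease inhibitor under the mean count of 10, had 21, 11, 11 and 15 counts in RPRD1B replicates 1 to 4 and 5, 9, 2 and 3 counts in scrambled replicates 1 to 4.

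The proteins that hold or assist the receptor gave no call between the groups. Of 14 chaperones, co-activators and partners 0 rose and 0 fell, where 3.97% and 3.61% of tested genes did, and the median was 0.02. DESeq2 called 1 of the 14, Hsp90aa1. Hsp90aa1, the inducible HSP90, stood at -0.08 ± 0.03 (adjusted p = 0.0723 in edgeR), the acetyltransferase gene Ep300 at 0.09 ± 0.04 (adjusted p = 0.189), the co-activator gene Ncoa3 at 0.14 ± 0.07 (adjusted p = 0.259) and Ptges3, which codes for the chaperone p23, at -0.05 ± 0.03 (adjusted p = 0.518). Between the sets, 10 of the 14 were lower in set 2 and 2 higher, where 32.9% of tested genes were lower and 33.0% higher. Ep300 stood at -0.69 ± 0.04 for set 2 over set 1 (adjusted p = 3.82e-25), while Hsp90aa1 stood at 0.20 ± 0.03 (adjusted p = 4.31e-09).

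Relatives of AHR and ARNT with the same bHLH-PAS fold gave 1 lower gene among 10 tested and 0 higher, beside 3.61% lower and 3.97% higher over all genes, with a median of -0.09. Hif1a, the hypoxia factor that also pairs with ARNT, fell, with a log2 change of -0.11 ± 0.03 and an adjusted p of 0.0301 in edgeR. Leaving out RPRD1B replicate 1 gave an adjusted p of 0.122, RPRD1B replicate 2 gave 0.111, scrambled replicate 1 gave 0.155 and scrambled replicate 3 gave 0.0676, so the call rests on each of these. The clock gene Per1 stood at -0.12 ± 0.04 (adjusted p = 0.0953), the neuronal factor gene Npas4 at -0.30 ± 0.12 (adjusted p = 0.146) and Arnt2, the ARNT paralog, at -0.13 ± 0.06 (adjusted p = 0.167). Sim1 and Sim2, other partners of ARNT, had 0 counts in all libraries.

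Of 19 tested genes of ADP-ribosylation other than Tiparp 1 fell and 0 rose, a share near the 7.57% called in either direction over all genes, with a median of -0.00. Tnks, the tankyrase that marks AXIN for degradation, fell, with a log2 change of -0.16 ± 0.04 and an adjusted p of 0.00743 in edgeR. The call held when any 1 library was left out (adjusted p up to 0.0404), while set 1 alone gave 0.0770 and set 2 alone 0.103. Parp8 stood at -0.15 ± 0.07 (adjusted p = 0.200) and Tnks2, the other tankyrase, at -0.05 ± 0.03 (adjusted p = 0.402).

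Few other P450 genes were measurable in these cells. Of 101 other Cyp genes in the counts 14 had enough reads, 87 did not and 65 of those had 0 counts in every library. Among the 14, 1 fell and 0 rose, a share near the 7.57% over all genes, with a median of 0.06. Cyp26b1, a retinoic acid hydroxylase, fell, with a log2 change of -0.28 ± 0.08 and an adjusted p of 0.0132 in edgeR, a call lost without RPRD1B replicate 4 (0.109) or scrambled replicate 4 (0.0652). Cyp39a1, an oxysterol hydroxylase, stood at 0.22 ± 0.08 (adjusted p = 0.0826), Cyp4v3, a fatty acid hydroxylase, at 0.35 ± 0.21 (adjusted p = 0.375) and Cyp51, of cholesterol synthesis, at -0.03 ± 0.03 (adjusted p = 0.627).

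Among 9 tested genes that pass electrons to P450 enzymes or bind them, 1 rose and 1 fell, where 3.97% and 3.61% of all tested genes did, with a median of 0.05. Fdx1, the mitochondrial ferredoxin, rose by 0.23 ± 0.06 (adjusted p = 0.00914 in edgeR), lost without RPRD1B replicate 4 (0.0917) or scrambled replicate 4 (0.0685). Cyb5r1 fell, with a log2 change of -0.19 ± 0.06 and an adjusted p of 0.0210, lost without RPRD1B replicate 2 (0.155), RPRD1B replicate 4 (0.101) or scrambled replicate 1 (0.0699). Por, the reductase that supplies CYP1B1 in the endoplasmic reticulum, stood at 0.11 ± 0.04 (adjusted p = 0.108). Between the sets Por was higher in set 2 by 1.04 ± 0.04 (adjusted p = 5.70e-32). Of 12 genes that make or use kynurenine, a source of AHR ligands, or tryptophan, 2 were tested, and Afmid stood at 0.21 ± 0.15 (adjusted p = 0.505) and Wars at -0.00 ± 0.05 (adjusted p = 0.997).

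**Figure D4:**
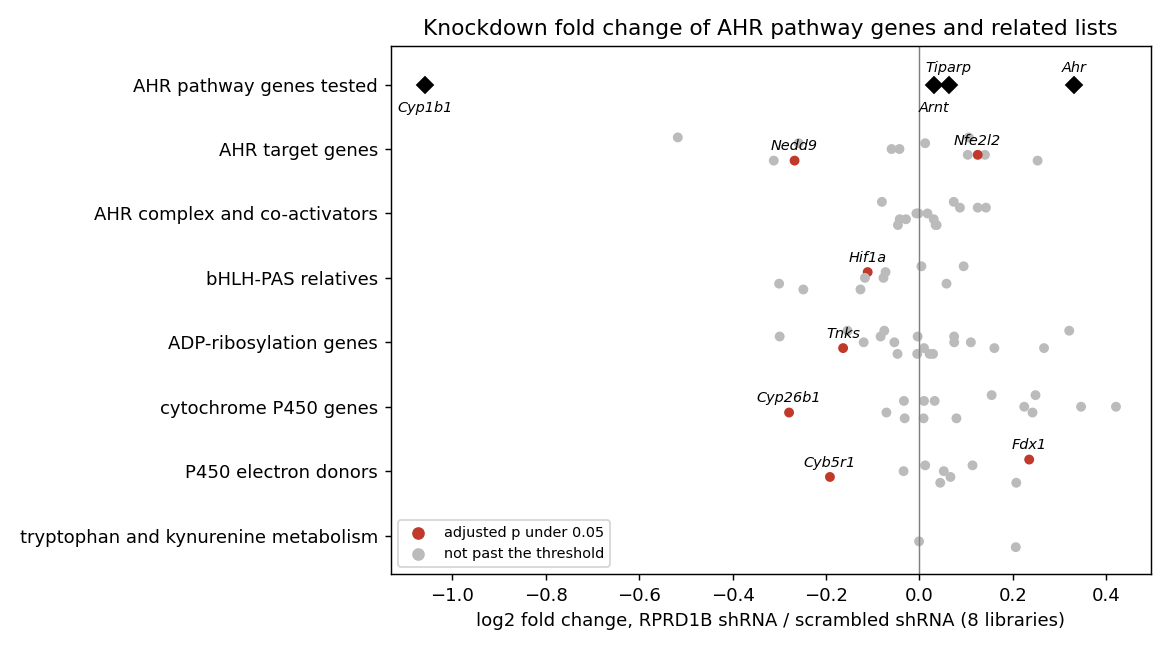
Log2 fold change over both sets of RPRD1B shRNA over scrambled shRNA for the 4 pathway genes (diamonds) and for each tested gene of 7 lists (circles), red where the adjusted p was under 0.05. Named circles mark the 7 genes past the threshold, which lie between -0.28 and 0.23. Cyp1b1 lies at -1.06, a fall that was in view when the genes were chosen.

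Genes whose profile was most like that of Cyp1b1 were sought by Pearson's r of log2 CPM over the 8 libraries. The search covered 9656 genes whose mean count reached 50, after numbered gene models, clone names and date-like names were left out. The highest were Fam101b (0.976), the kinase gene Rock2 (0.964), the non-muscle myosin gene Myh10 (0.962) and the chaperone gene Canx (0.957). After set means were subtracted they were Cp, which codes for ceruloplasmin (0.984), Myh10 (0.984), Cd24a (0.982) and B3gnt2 (0.980). All 7 had lower levels in RPRD1B cells over both sets, from -0.53 ± 0.07 for Cp to -0.14 ± 0.03 for Rock2 on the log2 scale, which is what likeness to Cyp1b1 selects.

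For Ahr the highest r over the 8 libraries were those of Thbs2 (0.994), Pdlim1, Lamc1 and Rnaseh2a (0.993 each), and after set means were subtracted those of Rgl1 (0.986), Frmd8 (0.981), Spire1 and Evi5 (0.979 each). The first 4 were higher in set 2, with log2 differences of set 2 over set 1 from 0.18 ± 0.05 for Pdlim1 to 0.95 ± 0.07 for Rnaseh2a. Their knockdown log2 fold changes were also above 0, from 0.05 ± 0.05 for Pdlim1 to 0.16 ± 0.07 for Rnaseh2a. Those of the second 4 ran from 0.09 ± 0.05 for Spire1 to 0.24 ± 0.05 for Rgl1, which is what likeness to Ahr selects. All these values describe 8 libraries that share 2 sets and 2 groups, and carry no p. No gene of the 5 was among the top 4 of either gene.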

How the data were processed

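Per the labels' protocols, RNA was purified with a column kit, cDNA was primed with random hexamers, and paired-end reads of 75 bases were made. The build is mm10 per the submitters' processing notes, while for aligner, counter and annotation the sources used here give no name. The authors deposited raw counts per gene for 8 libraries in 2 tables, and log2 fold changes with their standard errors for each table, which were only set beside the results. Of the 23420 entries 27 are names a spreadsheet turned into dates, kept in totals and tests.

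The test, run on genes whose mean count reached 10, was the two-sided quasi-likelihood F test of edgeR 4.0.16 (R 4.3.3; robust fit, TMM scaling), with terms for set and group, the group within a set, or their interaction, and Benjamini-Hochberg adjustment over all genes tested. Each SE divides the size of the log2 fold change by the root of F, and 95% intervals are normal ones from the SE. DESeq2 1.42.0 gave alternative calls. The fits were first tested on simulated counts. Of log2 changes of 0.5 they recovered 84% between groups, 82% between sets and 38% for the difference of folds between sets. Of log2 changes of 1 they recovered 96%, 93% and 78%. Of the calls, 6.74%, 5.91% and 5.69% were false. In each simulation 100 of 11723 genes were changed by each of these sizes. In the data 7.57% of tested genes were called between groups and 65.9% between sets, so the rates there may differ. Exon lengths and positions are from GENCODE M21 (GRCm38), matched for 21751 entries.

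No pairing by replicate number was seen: the correlation across genes of the deviations of same-numbered libraries was 0.00768 (set 1) and -0.0402 (set 2). Whether same-numbered libraries shared a source is not stated, and this check cannot tell. The genes, the lists and the tests were chosen with earlier results of these data known. Text names the 5 genes, Rprd1b, every called gene and up to 4 others per list with the smallest p, and the 4 genes most like Cyp1b1 or Ahr by each measure; Serpinb2, the classical battery genes and genes at 0 counts were added after their values were seen. Alternatives were other filters, scalings, a DESeq2 test, fits without set or group term, a replicate block, single sets, and each library left out.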

Additional observations from a re-analysis of the deposited data

Results flagged for a closer look

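For Ahr the knockdown fold over scrambled cells was 0.13 in set 2 and 0.62 in set 1. The log2 difference for set 2 minus set 1 was -0.480 (SE 0.10), and it was flagged as differing between the sets. The folds that enter it were known when the gene was chosen, so the flag is no independent evidence. Over 13 alternatives the difference ran from -0.54 to -0.42. The value nearest 0, -0.42, came without RPRD1B replicate 1. DESeq2 gave no adjusted p for this difference and is not among the 13. Ahr itself was 2.34-fold higher in set 2, and whether its level bears on the size of the fold was not tested.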

How the results depend on the processing

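Directions of the knockdown values of Ahr, Arnt, Tiparp and Cyp1b1 were the same under all 17 alternatives each, which reuse the libraries that chose the genes. The values moved by less than the SD between replicates under 9 of the 17 for Ahr and 14 for Cyp1b1. For Arnt and Tiparp, which lay near 0, the SE without the set term was 0.22 each, so their direction there says little. Ahr gave 0.28 ± 0.44 (SE) without the set term, 0.62 in set 1 alone, 0.13 in set 2 alone and 0.27 to 0.39 with single libraries left out. Cyp1b1 gave -0.77 in set 1, -1.27 in set 2 and -1.12 to -0.92 with single libraries left out. For set 2 over set 1, Cyp1b1 gave 0.55 (adjusted p = 0.219) without the group term and 0.37 to 0.57 with single libraries left out. The difference of the Ahr fold between sets ran from -0.54 to -0.42 with single libraries left out, and those of Arnt (-0.0476 to 0.0360) and Tiparp (-8.95e-05 to 0.13) changed sign near 0. Without the set term 12 genes were higher and 6 lower, against 465 and 423, and every list had 0 calls in each direction. DESeq2 called 302 genes higher, 1 AHR complex gene lower (Hsp90aa1, as under upper-quartile scaling, 1) and 0 electron donors lower. Without a filter 2 AHR targets were higher, Nfe2l2 and Serpinb2 (1.48 ± 0.49, adjusted p = 0.0448). With single libraries left out, 314 to 419 genes were higher and 303 to 410 lower; AHR targets higher, bHLH-PAS relatives lower, electron donors higher, electron donors lower and other P450 genes lower each ran from 0 to 1. With a replicate block in place of the set term, Cyp1b1 gave -1.04, Ahr 0.33, and 445 genes were higher and 401 lower, with the same counts of calls in each list; the replicate numbers share no stated source. The block also gave -0.48 for the difference of the Ahr fold between sets, and it could not be fitted to levels of set 2 over set 1, since each number belongs to 1 set. The causes of these changes were not tested. Depth limits Ahrr and Cyp1b1 most.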
